A study of Mus musculus with 4 samples.

Results

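The genes of the proteasome were followed across 4 mouse liver arrays: control and Mcu knockdown liver, each before and 30 h after partial hepatectomy. Members were all genes with 1 symbol that starts with Psma to Psmg and a number, leaving out symbols ending in ip, and 49 of 19505 named genes met this rule. No member had more than 1 named probe set. They comprised 15 genes of the 20S core, 3 immunoproteasome subunits, 26 regulatory genes, 4 assembly chaperones and Psme3ip1. The symbol of Psme3ip1 fits the rule, but it encodes a protein that binds Psme3 and is no subunit. It is counted among the members and kept out of the classes. The core subunit Psmb5 was not analysed here.

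Per the labels' protocols, male C57BL6J mice of 10 to 12 weeks with MCUloxp/loxp alleles were injected with AAV8-TBG-Cre, a virus whose TBG promoter is active in hepatocytes, and littermates with AAV8-TBG-Null. Surgery followed 5 weeks later, took 70% of the liver, and the remnant was collected 30 h after it. The control arrays carry the genotype label Wild type, while the protocol calls the controls littermates of the floxed mice. The 4 groups were WT_0h and WT_30h (control liver, AAV8-TBG-Null) and KD_0h and KD_30h (knockdown liver, AAV8-TBG-Cre). Each group was 1 array, and animals were pooled by 4 within a genotype, per the series text. There was no replicate, so no value has an error, no test was run, and every difference is one between arrays. Other liver cell types, in which that promoter is not active, stay in the sample, and no group had surgery without removal of liver. The sample descriptions also mention ethanol feeding, and that of the KD_30h array 1 h after surgery, which the titles and time labels do not.

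The proteasome is the protease that removes proteins tagged with ubiquitin. Its 20S core is a barrel of stacked rings of alpha and beta subunits, with the active sites on beta subunits facing the inside. The 19S regulatory particle caps the barrel: its ATPases unfold the substrate and push it in, while its non-ATPase subunits bind and remove ubiquitin. In cells exposed to interferon, Psmb8, Psmb9 and Psmb10 replace the constitutive catalytic subunits, which changes the peptides offered to MHC class I. In the regenerating liver the proteasome degrades cyclins and inhibitors of cyclin-dependent kinases as hepatocytes pass through the cell cycle.

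Values are log2 expression, so a difference of 1 is 2-fold. The targeted gene Mcu read 4.77 on WT_0h, 4.30 on WT_30h, 2.83 on KD_0h and 2.63 on KD_30h, lower on both knockdown arrays as their titles say. The 6 hepatocyte markers, Alb, Apoa1, Ttr, Cps1, Asgr1 and Tat, lay at or above percentile 98.1 of mean signal. Probe signals of the members were high as well: 46 of 49 lay at or above the median gene and 30 above percentile 90. The exceptions below the median were Psma8, Psmb11 and Psmg4. Psma8 and Psmb11 are tissue-restricted subunits known from testis and thymus. Brightness matters here, because bright genes as a group differed between arrays. In control liver the median difference from 0 h to 30 h was -0.01 over all 19505 genes but 0.22 over the 1950 genes above percentile 90, called the top-decile genes below. Every class is therefore set beside both medians.

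In control liver most proteasome genes were higher 30 h after hepatectomy, by amounts under 2-fold. Of the 49 members 43 (87.8%) were higher and 6 lower, against 49% of all genes and 68.5% of the top-decile genes above 0. The median difference was 0.28, and the range ran from -0.55 for Psma5 to 1.4 for Psmd10. At least 1.5-fold higher were 14 members (28.6%), against 12.5% of all genes and 22.1% of the top-decile genes. None was at least 1.5-fold lower, against 11% of all genes and 5.28% of the top-decile genes. After quantile normalization of the 4 arrays the split was 4 higher and 2 lower. The median was then 0.14, with 29 of 49 members above 0. Of all genes 11% were at least 1.5-fold higher and 11.3% lower after it. After centring on the top-decile genes the split of members was 3 and 2, with a median of 0.06. Of all genes 6.99% were then higher and 22.6% lower. The share of members at least 1.5-fold higher was thus below that of all genes in both settings. The size of the shift depended on how bright genes were aligned between arrays. Psmd6, Psmd10 and Psme3, 3 members, stayed at least 1.5-fold higher under all 5 rescalings tried. That count was not taken over all genes.

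**Figure D1:**
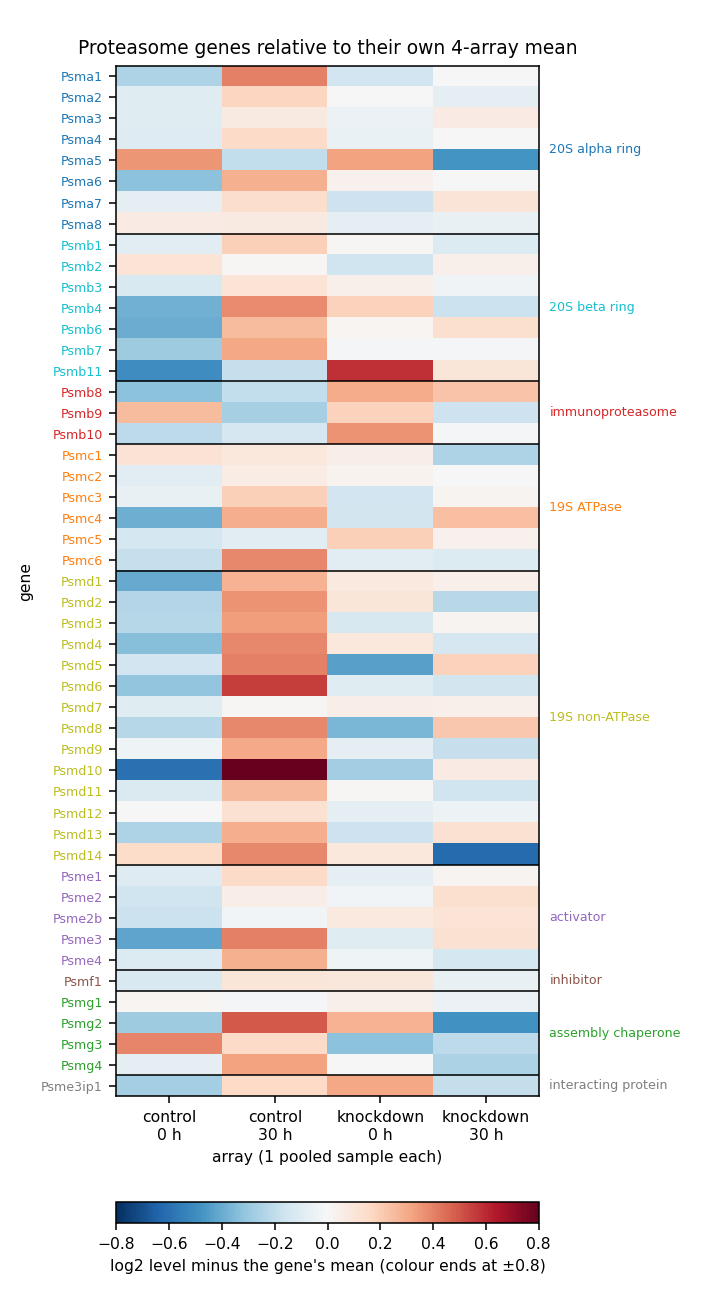
Level of each of the 49 genes on the 4 arrays, as the log2 value minus the gene's own mean over the arrays (colour, ending at ±0.8), with genes in rows by class. The control 30 h column is the reddest: 35 of 49 genes had their highest value there.

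The largest class median in control liver was that of the Psmd genes, the non-ATPase subunits of the 19S particle together with the base assembly chaperones Psmd5, Psmd9 and Psmd10. All 14 Psmd genes were higher at 30 h, against 49% of all genes and 68.5% of the top-decile genes. Psmd7 (0.11) and Psmd12 (0.12) lay below the top-decile median of 0.22. The median of the 14 was 0.56, against that 0.22. It was 0.31 after quantile normalization and 0.34 after centring on the top-decile genes. Without the 3 chaperones it was 0.56 over 11 genes. Psmd10, which encodes gankyrin, a chaperone of base assembly known for its high levels in liver cancer, read 3.89 on WT_0h, 5.29 on WT_30h, 4.21 on KD_0h and 4.55 on KD_30h. The control 30 h array stood above the other 3, and its difference from WT_0h was 2.64-fold, at percentile 98.4 of all genes. The mean signal of Psmd10 lay at percentile 62.3, and its WT_0h value was close to the median of gene means, 3.83. Psmd10 was also the only member past 2-fold in control liver. Psmd6, a lid subunit, read 6.37, 7.24, 6.59 and 6.54 on the same arrays in the same order, 1.83-fold higher in control liver at 30 h. Its value stood out on WT_30h alone, and the knockdown arrays lay within 0.05 of each other.

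Psmd4, the subunit that binds ubiquitin chains, read 7.07 on WT_0h, 7.80 on WT_30h, 7.50 on KD_0h and 7.28 on KD_30h. It was 1.66-fold higher in control liver at 30 h, with the knockdown arrays between the control ones. The base scaffold subunits Psmd1 (0.68) and Psmd2 (0.59) and the lid subunit Psmd8 (0.61) also passed 1.5-fold there. Psmd3 (0.56), Psmd5 (0.56) and Psmd13 (0.54) came close below the threshold. Psmd9 (0.34), an assembly chaperone, and Psmd11 (0.38), a lid subunit, lay below these. Psmd7 (0.11), Psmd12 (0.12) and Psmd14 (0.24) differed least among the Psmd genes.

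The 6 ATPases of the base, Psmc1 to Psmc6, had a median of 0.20 in control liver, near that of the top-decile genes. Psmc4 read 6.70 on WT_0h, 7.38 on WT_30h, 6.94 on KD_0h and 7.33 on KD_30h, higher at 30 h in both genotypes (by 0.68 and 0.39). Psmc6 read 7.0, 7.57, 7.10 and 7.08, with WT_30h apart from the other 3 arrays. Psmc2 (0.15) and Psmc3 (0.25) differed less, and Psmc1 (-0.03) and Psmc5 (0.05) hardly at all.

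The 20S core, with 15 genes, had a median of 0.27 in control liver, 0.02 after quantile normalization and 0.05 after centring on the top-decile genes. The class median lay near the 0.22 of the top-decile genes, and its members were spread. Higher by at least 1.5-fold were the alpha subunits Psma1 (0.65) and Psma6 (0.61) and the beta subunits Psmb4 (0.76), Psmb6 (0.65) and Psmb7 (0.60). Psmb6 and Psmb7 carry the caspase-like and trypsin-like active sites. Psma1 read 7.42 on WT_0h, 8.07 on WT_30h, 7.51 on KD_0h and 7.66 on KD_30h. Psmb6 read 8.02, 8.67, 8.43 and 8.54, and Psmb7 read 7.69, 8.29, 7.96 and 7.97. The remaining core genes differed by -0.10 (Psmb2) to 0.31 (Psmb11), apart from Psma5. Among them were Psma2 (0.27), Psma3 (0.17), Psma4 (0.26), Psma7 (0.22), Psmb1 (0.28) and Psmb3 (0.23), and the dim Psma8 (0.01). For both catalytic subunits Psmb6 and Psmb7 WT_0h was the lowest array and WT_30h the highest, and the knockdown arrays lay between them.

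Psma5, another alpha subunit, ran the other way and was lower at 30 h in both genotypes. It read 6.11 on WT_0h and 5.56 on WT_30h, and 6.08 on KD_0h and 5.28 on KD_30h. The values at 0 h differed by 0.03, and both 30 h values lay below both 0 h values. The difference was -0.55 in control liver and -0.80 in the knockdown, where it was the lowest of all members and at percentile 4.36 of all genes.

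Among the activators, the alternative caps of the 20S core, Psme3 differed most in control liver. It encodes a nuclear cap that opens the core without ubiquitin, and read 6.34 on WT_0h, 7.16 on WT_30h, 6.66 on KD_0h and 6.88 on KD_30h, 1.77-fold higher in control liver at 30 h. Psme4, the nuclear activator linked to histone breakdown, read 5.90, 6.30, 5.98 and 5.87. The interferon-inducible pair Psme1 and Psme2 differed by 0.26 and 0.21 in control liver. Psme1 read 9.15, 9.41, 9.18 and 9.28, and Psme2 read 6.38, 6.59, 6.52 and 6.67. Psme2b (0.15) is a near copy of Psme2, so signal between them may be shared. The inhibitor Psmf1 read 6.66 on WT_0h, 6.88 on WT_30h, 6.87 on KD_0h and 6.72 on KD_30h, a span of 0.22.

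**Figure D2:**
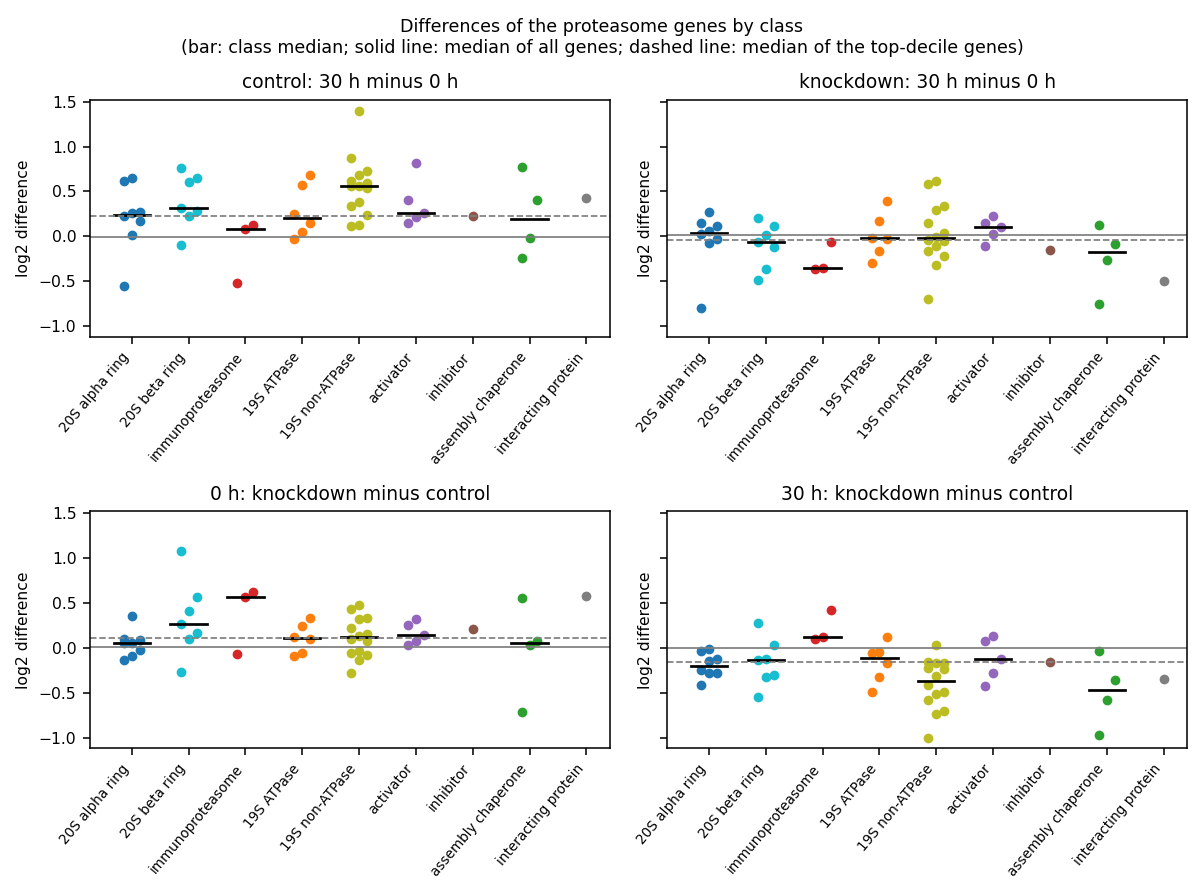
Log2 difference of each member (points) in the 4 comparisons of 2 arrays, by class, with the class median as a black bar, the median of all genes as a solid line and that of the top-decile genes as a dashed line. In control liver the non-ATPase bar, at 0.56, is the class bar farthest above the dashed line at 0.22, while in the knockdown most bars lie near 0.

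In knockdown liver the proteasome genes as a group did not stand higher at 30 h. The median difference was -0.03, with 21 members higher and 28 lower, beside medians of 0.01 for all genes and -0.04 for the top-decile genes. Only Psmd5, a base assembly chaperone, was at least 1.5-fold higher (4.59 on KD_0h and 5.21 on KD_30h, a difference of 0.62). That is 1 of 49 members, or 2.04%, against 10.4% of all genes and 8.56% of the top-decile genes. After median centring of each array it was under the threshold. At least 1.5-fold lower were Psma5, Psmd14 and Psmg2 (6.12% of members, against 9.69% of all genes and 11.5% of the top-decile genes). These 3 stayed past the threshold under all 5 rescalings, a count not taken over all genes.

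Psmd14 is the metalloprotease of the lid that cuts ubiquitin from the substrate before it enters the core. It read 6.15 on WT_0h, 6.39 on WT_30h, 6.09 on KD_0h and 5.39 on KD_30h. The first 3 arrays lay close together, and on KD_30h the level was lower by 0.70 than on KD_0h (a difference of -0.70). Psmg2, a chaperone of alpha ring assembly, read 4.59, 5.36, 5.15 and 4.39. It was 1.71-fold higher at 30 h in control liver and 1.69-fold lower at 30 h in the knockdown, and no other member passed 1.5-fold in opposite directions.

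The responses of both genotypes lay within 0.1 of each other for 9 of 49 members. Of these, Psmd8 was higher by 0.61 in control and 0.58 in knockdown liver, and Psmd5 by 0.56 and 0.62. Both responses come from separate arrays, so they can be set side by side. Of the 49 members 19 were higher in both, 4 lower in both, and 24 (49%) higher in control but lower in knockdown liver. The last pattern held for 21.7% of all genes and 26.5% of the top-decile genes. These joint counts were taken on the deposited values only. After quantile normalization 29 members were higher in control and 21 in knockdown liver. After centring on the top-decile genes these were 31 and 25. Across members the responses correlated with r = 0.29 (n = 49 genes, which are not independent), against 0.28 over all genes and 0.81 over the top-decile genes.

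**Figure D3:**
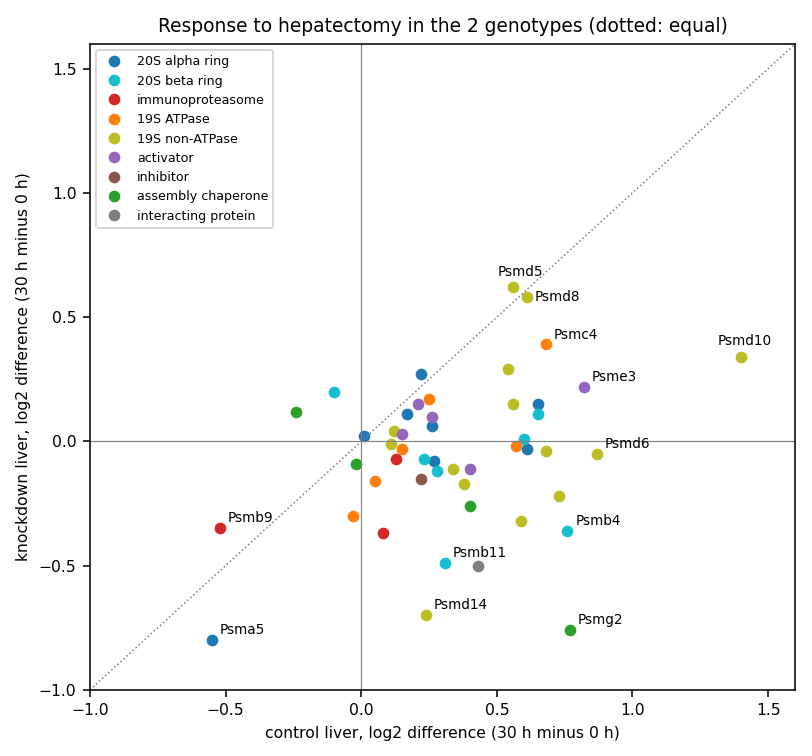
Difference between 30 h and 0 h in control liver (horizontal) and in knockdown liver (vertical), log2, for the 49 members coloured by class; the dotted line marks equal differences. Most points lie to the right of 0 and below the dotted line; Psmd5 and Psmd8 lie near it and Psmg2 lies far below it.

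At 0 h, before surgery, knockdown liver differed little from control in the constitutive subunits. The median of all members was 0.10, the same size as the 0.11 of the top-decile genes, with 36 of 49 (73.5%) above 0, against 51% of all genes and 65.8% of the top-decile genes. Centred on the top-decile genes, 24 of 49 were above 0. Medians were 0.10 for the 20S core, turning to -0.01 after quantile normalization and -0.02 after cyclic loess, and 0.12 for the regulatory genes. At least 1.5-fold higher were 2 members (4.08%), Psmb8 and Psmb11, against 7.74% of all genes and 3.69% of the top-decile genes. Psmb8 was under the threshold after quantile normalization (0.57), cyclic loess (0.56) and centring on bright genes (0.56) or on the top-decile genes (0.51), and Psmb11 stayed past it. Psmb11, the thymus-restricted beta subunit, read 2.42 on WT_0h, 2.73 on WT_30h, 3.50 on KD_0h and 3.01 on KD_30h, all below the median gene's signal. At least 1.5-fold lower was Psmg3, an assembly chaperone (2.04% of members, against 7.52% of all genes and 0.615% of the top-decile genes). It read 4.35, 4.11, 3.63 and 3.75, lower on both knockdown arrays. Psmb4, a core subunit without an active site, differed by 0.57 at 0 h, just under the threshold.

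The immunoproteasome subunits did not move as a set. Psmb8 read 5.56 on WT_0h, 5.69 on WT_30h, 6.18 on KD_0h and 6.11 on KD_30h. Both knockdown arrays were above both control arrays, by 0.62 at 0 h and 0.42 at 30 h, and the hepatectomy differences were 0.13 and -0.07. Psmb10 read 5.22, 5.30, 5.79 and 5.42, with KD_0h above the other 3 arrays and a difference of 0.57 from WT_0h. Psmb9 read 5.43, 4.91, 5.36 and 5.01. It did not follow the others: the knockdown differed from control by -0.07 at 0 h and 0.10 at 30 h, and both 30 h arrays lay below both 0 h arrays. The medians of the 3 were 0.57 at 0 h and 0.12 at 30 h for knockdown minus control. Those of the top-decile genes were 0.11 and -0.16.

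Other genes of interferon signalling and MHC class I loading were read beside them. Of 16 measured genes of that list, 12 were higher and 4 lower in knockdown liver at 0 h. Above 0 there were 51% of all genes and 65.8% of the top-decile genes. The list had a median of 0.24, beside 0.11 for the top-decile genes, and none was past 1.5-fold. B2m, the light chain of MHC class I, differed by 0.58, Tapbp by 0.53 and Tap2 by 0.43. Tap1 differed by 0.01, and the 4 lower genes were Irf1 (-0.07), Pdia3 (-0.10), Erap1 (-0.20) and Canx (-0.22). Irf1, a factor that induces immunoproteasome genes, read 6.58 on WT_0h, 5.90 on WT_30h, 6.51 on KD_0h and 6.35 on KD_30h. Its value, like that of Psmb9, hardly differed between genotypes at 0 h and was lowest in control liver at 30 h. The 2 genes differed on KD_30h: knockdown minus control at 30 h was 0.45 for Irf1 and 0.10 for Psmb9. From 0 h to 30 h in the knockdown, Irf1 differed by -0.16 and Psmb9 by -0.35. Ifng read between 1.94 and 1.98 on all 4 arrays, near the bottom of the scale.

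Markers of the resident macrophages moved with Psmb8 and Psmb10 at 0 h, and their part in the result was not tested. Of the 8 Kupffer cell markers 7 were higher in knockdown liver at 0 h, with a median of 0.46. Above 0 there were 51% of all genes and 65.8% of the top-decile genes. At 30 h 7 of 8 were lower, with a median of -0.27. Below 0 there were 49.8% of all genes and 72.7% of the top-decile genes. Summed on the linear scale, the log2 level of the 8 markers was 8.44 on WT_0h, 9.10 on WT_30h, 8.95 on KD_0h and 8.86 on KD_30h. The defining markers Clec4f and Timd4 differed by 0.42 and -0.10 at 0 h. The 14 measured markers of other leukocytes had a median of 0.04 at 0 h, and their summed level ran from 7.12 to 7.47 over the arrays. In a bulk sample, fewer cells of a type and less RNA per cell cannot be told apart.

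**Figure D4:**
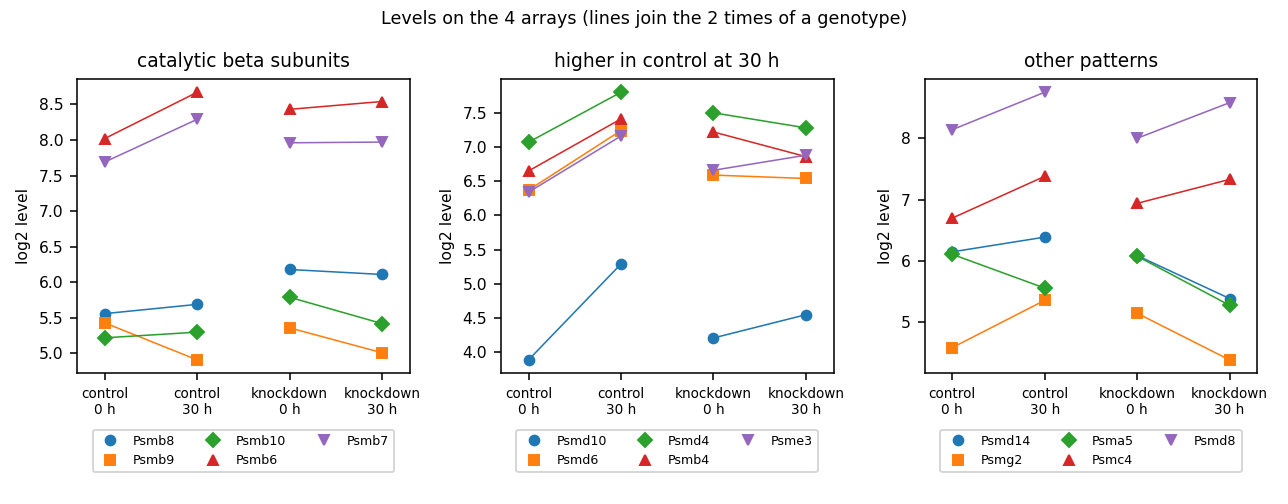
Log2 level on each of the 4 arrays for the catalytic beta subunits (left), 5 genes higher in control liver at 30 h (middle) and 5 with other patterns (right); lines join the 0 h and 30 h arrays of a genotype. Psmb8 is higher on both knockdown arrays, Psmd10 peaks at 5.29 on the control 30 h array, and Psmd14 and Psmg2 are lowest on the knockdown 30 h array.

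At 30 h the proteasome genes mostly read lower on the knockdown array. Of 49 members 40 (81.6%) were lower and 9 higher, against 49.8% of all genes and 72.7% of the top-decile genes below 0. The median was -0.22, beside 0.00 for all genes and -0.16 for the top-decile genes. Centred on the top-decile genes, 28 were lower and 19 higher. At least 1.5-fold lower were 4 members (8.16%), against 9.19% of all genes and 6.41% of the top-decile genes. None was at least 1.5-fold higher, against 10.4% of all genes and 1.08% of the top-decile genes. The 4 were Psmd14 (-1.0, 2.0-fold lower, at percentile 1.85 of all genes), Psmg2 (-0.97), Psmd10 (-0.74) and Psmd6 (-0.70). Psmd14 and Psmg2 stayed past the threshold under all 5 rescalings, a count not taken over all genes.

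By class, the 14 Psmd genes had a median of -0.36 at 30 h, with 13 of them lower, -0.31 without the 3 base assembly chaperones and -0.19 after quantile normalization. The ATPases had -0.12 and the 20S core -0.15, both close to the top-decile genes; the core turned to 0.01 after centring on it. All 8 alpha subunits were lower, from -0.41 for Psma1 to -0.01 for Psma3. Their median was -0.20, beside -0.16 for the top-decile genes, of which 72.7% were lower. All 4 Psmg genes, chaperones of 20S assembly, were lower as well, from -0.97 for Psmg2 through Psmg4 (-0.58) and Psmg3 (-0.36) to Psmg1 (-0.04). The 3 immunoproteasome subunits were the class that lay above 0, from 0.10 to 0.42. Of the other members above 0, Psmb11 (0.28) was dim, and Psme2b (0.13), Psmc5 (0.12), Psme2 (0.08), Psmb2 (0.03) and Psmd7 (0.03) differed little.

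The array with the highest value was then counted for each gene. WT_30h was the highest of the 4 for 35 members (71.4%), against 26% of all genes and 45.1% of the top-decile genes. KD_30h was the highest for 2 members, Psme2 and Psme2b, and WT_0h was the lowest for 30 (61.2%, against 39% of the top-decile genes). After quantile normalization WT_30h was the highest for 25 members (51%), against 24.7% of the top-decile genes, and after cyclic loess for 27 (55.1%), against 26.2%. WT_0h was then the lowest for 15 (30.6%, against 24.6%) and 17 (34.7%, against 25.8%). The share of members that peaked on the control 30 h array was thus lower after either normalization and still above that of the top-decile genes, which was not tested.

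**Figure D5:**
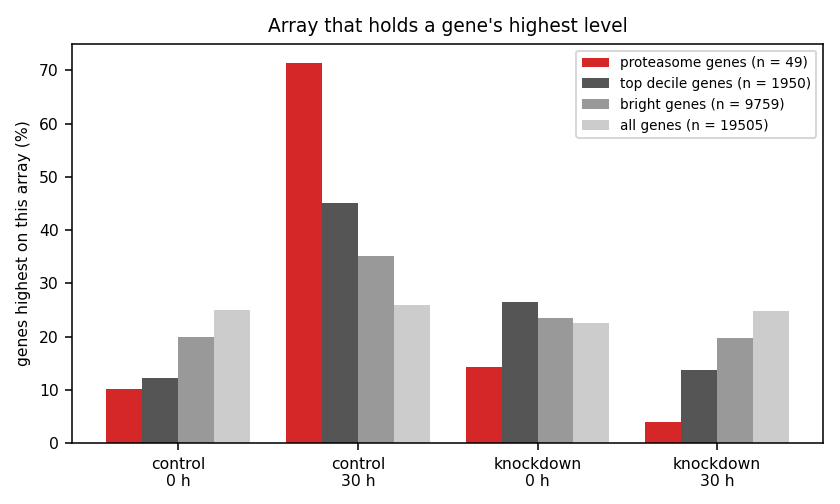
Share of genes (percent) whose highest log2 value of the 4 lay on each array, for the 49 proteasome genes, the top-decile genes, the bright genes (at or above the median gene) and all genes. The control 30 h array was the highest for 71.4% of proteasome genes and 45.1% of the top-decile genes.

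The difference of the responses (knockdown minus control) uses all 4 arrays. It was below 0 for 43 of 49 members (87.8%), against 51% of all genes and 78.1% of the top-decile genes, with a median of -0.35, beside -0.02 for all genes and -0.26 for the top-decile genes. At least 1.5-fold lower were 15 members (30.6%), against 17% of all genes and 19.3% of the top-decile genes, and none was 1.5-fold higher, against 16.9% and 1.95%. The split was 10 and 0 after quantile normalization, and 8 and 1 after centring on the top-decile genes. Of all genes 16.2% were lower and 14.7% higher after the first, and 8.61% and 28.7% after the second. Past the threshold under all 5 rescalings were 8 members, a count not taken over all genes. They were Psmg2 (-1.53), Psmb4 (-1.12), Psmd10 (-1.06), Psmd4 (-0.95), Psmd14 (-0.94), Psme3ip1 (-0.93), Psmd6 (-0.92) and Psmd2 (-0.91). Psmb4 read 6.65 on WT_0h, 7.41 on WT_30h, 7.22 on KD_0h and 6.86 on KD_30h, so the differences were 0.76 in control liver and -0.36 in the knockdown. Psme3ip1, no subunit, read 5.63, 6.06, 6.21 and 5.71. The Kupffer cell markers differed in the same direction as the members: in control liver 7 of 8 were higher at 30 h and none lower, with a median of 0.38. There 49% of all genes and 68.5% of the top-decile genes were higher. For the markers the difference of the responses had a median of -0.72 and was past 1.5-fold in the lower direction for 7 of 8. Their part in the members' values was not tested.

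Genes that work with the proteasome were taken from lists chosen with earlier results of these data known. Of 10 measured proteasome-associated genes, 9 were higher in control liver at 30 h (median 0.18), and 7 were lower in the knockdown at 30 h (median -0.22). In control liver 49% of all genes and 68.5% of the top-decile genes were higher, the latter with a median of 0.22. In the knockdown at 30 h 49.8% and 72.7% were lower, with a top-decile median of -0.16. The deubiquitinases that sit on the 19S particle were among the lowest there: Uchl5 differed by -1.12 and Usp14 by -0.98. Usp14 read 3.68 on WT_0h, 4.56 on WT_30h, 3.70 on KD_0h and 3.58 on KD_30h, with WT_30h apart from the rest. Ecpas, which holds core and cap together, differed by -0.85 at 30 h. Pomp, the chaperone that matures the core, differed by 0.01 in control liver and 0.24 in the knockdown.

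Ubiquitin shuttling genes had a median of 0.43 in control liver over 8 measured genes, with 6 higher. The top-decile genes had 0.22, with 68.5% higher. The shuttle Rad23b differed by 0.76 and Ubqln1 by 0.60, while Vcp, the ATPase that extracts tagged proteins from membranes and complexes, differed by 0.56. In knockdown against control liver at 30 h the list had a median of -0.44, beside -0.16 for the top-decile genes. Vcp (-0.87), Ubqln2 (-0.84) and Rad23b (-0.64) were past 1.5-fold. They were 3 of 8 genes, against 9.19% of all genes and 6.41% of the top-decile genes at least 1.5-fold lower. Among the 10 measured transcriptional regulators none passed 1.5-fold between genotypes at either time. Nfe2l1, the factor that drives proteasome genes when the proteasome falls short, read 7.12 on WT_0h, 7.44 on WT_30h, 7.40 on KD_0h and 7.01 on KD_30h. Its difference was 0.32 in control and -0.39 in knockdown liver. Nfe2l2 read between 5.17 and 5.24.

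Promoter letters were read for the members as a planned description, without a test. The RefSeq table of build GRCm38.p6, with 250 bases before and 50 after each start, held 45 promoters of 41 of the 49 members. The antioxidant response element TGACNNNGC, bound by Nfe2l1 and Nfe2l2, was found on either strand in 5 of 45 promoters (11.1%), against 12.4% of all 32851. CCAAT, bound by NF-Y, was found in 15 (33.3%, against 37.4%). The interferon-stimulated response element pattern was found in 5 (11.1%, against 3.44%), and TTCNNNGAA, bound by STAT factors, in 3 (6.67%, against 8.3%). No match of a motif overlapped a match of another in the members. A match is a description of letters and not a measured site.

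The 100 bases before the start are printed for 6 members to show where such letters lie, 5′ to 3′ on the gene's strand and with matches on either strand in capitals. CCAAT then may read ATTGG. In these stretches Psmb6 and Psmd9 hold TGACNNNGC, Psmd10 and Psmb9 hold CCAAT, Psmd4 holds CCAAT and the interferon-stimulated response element pattern, and Psmb8 holds TTCNNNGAA. The coordinates in GRCm38.p6 are chr11:70525257-70525356 (Psmb6, plus strand), chr5:123228090-123228189 (Psmd9, plus strand), chrX:140956712-140956811 (Psmd10, minus strand), chr3:95042615-95042714 (Psmd4, minus strand), chr17:34198095-34198194 (Psmb8, plus strand) and chr17:34187331-34187430 (Psmb9, minus strand).
Psmb6: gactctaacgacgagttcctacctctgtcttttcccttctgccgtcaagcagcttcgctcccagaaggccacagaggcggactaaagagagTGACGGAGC
Psmd9: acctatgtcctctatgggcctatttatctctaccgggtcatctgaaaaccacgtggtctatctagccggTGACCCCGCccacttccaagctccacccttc
Psmd10: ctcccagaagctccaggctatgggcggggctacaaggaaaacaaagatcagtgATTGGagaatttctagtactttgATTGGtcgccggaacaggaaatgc
Psmd4: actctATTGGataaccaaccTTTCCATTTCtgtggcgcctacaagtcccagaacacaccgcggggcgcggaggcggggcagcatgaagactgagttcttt
Psmb8: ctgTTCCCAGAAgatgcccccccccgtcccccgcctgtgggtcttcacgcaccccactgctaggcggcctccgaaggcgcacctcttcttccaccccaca
Psmb9: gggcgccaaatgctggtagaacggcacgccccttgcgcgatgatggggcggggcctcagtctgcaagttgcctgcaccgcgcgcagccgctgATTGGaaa

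Members with TGACNNNGC were all higher in control liver at 30 h, as most members were: Psmb6 (0.65), Psmc6 (0.57), Psme4 (0.40), Psmd9 (0.34) and Psmd12 (0.12). The interferon-stimulated response element pattern was found in Psmb3, Psmd4, Psmd9, Psme1 and Psmg4 and in none of the immunoproteasome promoters read. Psmb8 and Psmb9, which lie close together on chromosome 17, differed in their letters in the printed stretch and in their values between genotypes at 0 h. A link between letters and values was not tested.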

How the data were processed

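RNA from 4 pools of mouse liver was hybridised to 1 array each. The authors deposited log2 values. The submitters' processing notes name RMA and the program Affymetrix Expression Console, with versions, parameters and genome build not given in the sources used here. RMA aligns the arrays to each other, but the deposited values still differed in spread. The SD over probe sets was 1.83 on WT_0h, 1.96 on WT_30h, 1.88 on KD_0h and 1.85 on KD_30h. A difference shared by bright genes thus stayed in the deposited values, and its cause was not tested. The number of arrays limits the precision.

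Probe sets were named through the platform annotation: of 22206, 19572 had 1 symbol, 0 had several and 2634 had none in that table. The brightest probe set stood for each of 55 genes with several. Differences were taken in Python 3.11.15 with pandas 2.3.3 over all 19505 genes, and members at least 1.5-fold (0.58) apart were counted as a rule of size. Alternatives were median centring, quantile normalization and cyclic loess (limma 3.58.1 in R 4.3.3), centring on bright genes, filters on dim genes, a 2-fold threshold and the mean of probe sets. Centring on the top-decile genes, and leaving out Psme3ip1 and Psme2b, or Psmd5, Psmd9 and Psmd10, were chosen after seeing the data. Counting past 1.5-fold and taking a median were tried on simulated shifts, added to permuted differences between KD_0h and WT_0h. Permuting removes any link to brightness, so that trial does not cover the difference shared by bright genes.

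By the rule for named genes, values on all 4 arrays were given for the immunoproteasome, Psmb6, Psmb7, Psmd4, Psmd14, Psme1 to Psme4 and, in each class, the members with the largest positive and negative difference. Other members with 4 values (Psmd6, Psmg3, Psme3ip1) were chosen after their values were seen, and the rest are given by their differences. Members and lists were chosen with earlier results of these data known. Protein sequences were not used here, and 1 detail from the labels is left unreported.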

Additional observations from a re-analysis of the deposited data

Results flagged for a closer look

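The values below had opposite signs in control and knockdown liver or at 0 h and 30 h. They are medians of classes, and the 1 gene that was at least 1.5-fold apart in both directions. Smaller opposite differences were common: in the deposited values 24 members (49%) were higher in control and lower in knockdown liver at 30 h. That pattern held for 21.7% of all genes and 26.5% of the top-decile genes. With 1 array per group the differences between these effects were not tested. The response to hepatectomy had a median of 0.28 in control and -0.03 in knockdown liver over all members, a gap of -0.31. For the regulatory genes it was 0.39 and -0.02, a gap of -0.41, and for the 3 immunoproteasome subunits 0.08 and -0.35, a gap of -0.43. These medians belong to different genes (Psmb10 and Psmb9), and the differences of responses taken gene by gene had a median of -0.20, from -0.45 to 0.17. Psmg2, the assembly chaperone, differed by 0.77 and -0.76, a gap of -1.53. Knockdown minus control had a median of 0.10 at 0 h and -0.22 at 30 h over all members, a gap of -0.32. For the 20S core it was 0.10 and -0.15, a gap of -0.25, and for the regulatory genes 0.12 and -0.23, a gap of -0.35. The top-decile genes had opposite signs in the same comparisons, with 0.22 and -0.04 for the responses and 0.11 and -0.16 for the knockdown effects.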

How the results depend on the processing

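Each array was a pool with no replicate, so no difference carries an error, and the size rule of 1.5-fold is no test. No paired analysis was possible because each group has 1 array. Medians that moved by over 0.1 (log2), and counts that moved by over 1.5 times, are given here. Within these limits stayed 197 recomputed medians and counts, and 83 did not. For 20 named members, 229 of 600 recomputed differences moved by over 0.1. The cause was not tested. Centring on the top-decile genes moved the median of all genes by up to 0.26 and on bright genes by up to 0.18, so member values are relative to those genes.

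In control liver, medians after quantile normalization, cyclic loess and centring on the top-decile genes were 0.14, 0.14 and 0.06 for all members, 0.02, 0.05 and 0.05 for the 20S core, 0.19, 0.22 and 0.17 for regulatory genes and -0.05, -0.03 and -0.14 for the immunoproteasome. The 14 higher and 0 lower members became 4 and 2 after quantile normalization and 4 and 2 after cyclic loess. They became 6 and 2 after centring on bright genes and 3 and 2 after centring on the top-decile genes. Of all genes 11%, 11.9%, 9.59% and 6.99% were higher in these 4 settings. Lower in them were 11.3%, 9.93%, 15.5% and 22.6% of all genes. At least 2-fold higher was 1 member, against 4.19% of all genes.

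In knockdown liver, the 1 higher member became 0 after median centring, 0 above percentile 75, 0 at 2-fold, and 2 after cyclic loess and either centring on bright genes. Higher in these settings were 8.66% of all genes, 7.71% of genes above percentile 75, and 2.72%, 9.66% and 11.9% (either centring) of all genes. The 3 lower became 0 at 2-fold, against 2.01% of all genes. Above percentile 75 the immunoproteasome median was -0.22.

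At 0 h, medians of the 20S core were -0.01 (quantile), -0.02 (cyclic loess) and -0.01 (top-decile centring), that of all members -0.01 (top-decile centring) and that of the immunoproteasome 0.46 (top-decile centring). The 2 higher members became 1 under quantile normalization, cyclic loess, both centrings on bright genes, both filters on dim genes and 2-fold. Of all genes 7.81% (quantile), 7.63% (cyclic loess), 6.09% (bright-gene centring), 4.96% (top-decile centring) and 1.45% (2-fold) were higher. Among bright genes 7.7% were higher, and among genes above percentile 75 5.52%. The 1 lower member became 0 above percentile 75 and at 2-fold, against 1.85% of genes above percentile 75 and 1.25% of all genes.

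At 30 h, medians after quantile normalization, cyclic loess, centring on bright genes and centring on the top-decile genes were -0.08, -0.07, -0.11 and -0.06 for all members, -0.08, -0.08, -0.12 and -0.07 for regulatory genes and 0.24, 0.25, 0.23 and 0.28 for the immunoproteasome (0.27 above percentile 75). The 20S core was at -0.04 and 0.01 after centring on bright genes and on the top-decile genes. The 4 lower members became 8 after median centring, 2 above percentile 75, 2 after centring on the top-decile genes and 1 at 2-fold. Lower in these settings were 12.8% of all genes, 11.1% of genes above percentile 75, and 5.07% and 1.86% of all genes.

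For the difference of responses, medians in the same order of 4 were -0.09, -0.10, -0.17 and -0.09 for all members, -0.18, -0.16, -0.17 and -0.09 for the 20S core, -0.07, -0.06, -0.15 and -0.07 for regulatory genes and -0.01, 0.02, -0.02 and 0.06 for the immunoproteasome (-0.20 as deposited, -0.32 above percentile 75). The 15 lower members became 9 after centring on bright genes, 8 after centring on the top-decile genes, where 1 was higher, and 3 at 2-fold. Of all genes 10.7%, 8.61% and 5.82% were lower in these settings.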
